A study of Mus musculus with 6 samples.

Results

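Cyp1a1, Tph1 and Lao1 are the 3 genes of tryptophan metabolism in the study's list of mRNAs that differed between the diets, and each was read from the single probe that the list pairs with it, 3 of the 279 genes that the list names and 3 of the 91188 probes of the array. RNA came from the aortas of 6 male mice, homozygous apoE(-/-) on a C57BL/6 background, which lack apolipoprotein E in every cell and form atherosclerotic lesions even on chow. In the normal diet group 3 mice ate chow, and in the high-fat diet group 3 mice were fed 20% fat and 2.5% cholesterol. Both groups were fed for 8 weeks. Each aorta was hybridised to 1 single-colour array. Ages are not given in the sources used here, and no wild-type mice are among the samples. The genes were selected on the difference between these same diets (at least 2-fold, with an unadjusted p of at most 0.05), so that difference is described here without a test.

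Tryptophan is broken down by several branches. Most of it enters the kynurenine branch, while a smaller part is hydroxylated to make serotonin. Tph1, tryptophan hydroxylase 1, catalyses the rate-limiting step of serotonin synthesis outside the brain and is known from gut enterochromaffin cells and mast cells. Lao1 encodes an L-amino acid oxidase, a secreted flavoenzyme known from mouse milk that deaminates amino acids and releases hydrogen peroxide. Cyp1a1 is a cytochrome P450 monooxygenase best known for the oxidation of aromatic hydrocarbons, and it is the classic target of the aryl hydrocarbon receptor, whose ligands include several products of tryptophan. In vessels it is known from endothelium.

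The probes are the only view of these genes used here. Other probes of the same genes, if the array holds any, could not be identified, because the list names only probes that differed. The first 30 of the 60 bases of each are shown, in lower case with nothing capitalised.
Cyp1a1 probe, first 30 bases: gataatttgctagtgtaacaaagaagattc
Tph1 probe, first 30 bases: tacttctgttttgtcttctggaacctgctg
Lao1 probe, first 30 bases: attctagaatcagcctttagcttgaaggaa
The Cyp1a1 probe was poor in G and C, with 15 such bases of 60 (25.0%), and only 0.405% of the array's probes had a lower share. The Tph1 probe had 45.0% and the Lao1 probe 36.7%, on either side of the array's median of 41.7%. None of the 3 shared a run of 20 bases, on either strand, with any other probe of the array. Each was printed as 1 spot, so there was no second spot to average on any array.

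The promoters of the 3 genes are shown because Cyp1a1 is a classic target of the aryl hydrocarbon receptor, which binds DNA. They are the 250 bases before each annotated start, from RefSeq on GRCm38.p6, 5′ to 3′ on the gene's strand. Capitals mark GCGTG, the core that the aryl hydrocarbon receptor binds, searched on both strands.
Cyp1a1, chr9:57697363-57697612, plus strand: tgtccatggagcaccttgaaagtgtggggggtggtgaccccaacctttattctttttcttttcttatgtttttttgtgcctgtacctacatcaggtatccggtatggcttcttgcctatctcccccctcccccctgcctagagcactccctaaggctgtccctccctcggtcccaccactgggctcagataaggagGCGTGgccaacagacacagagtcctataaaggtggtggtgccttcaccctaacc
Tph1, window 1, chr7:46672538-46672787, minus strand: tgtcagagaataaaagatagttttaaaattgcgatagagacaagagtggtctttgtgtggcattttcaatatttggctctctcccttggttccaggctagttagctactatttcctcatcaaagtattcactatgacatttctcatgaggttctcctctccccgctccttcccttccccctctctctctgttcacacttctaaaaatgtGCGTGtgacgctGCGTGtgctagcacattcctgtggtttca
Tph1, window 2, chr7:46667378-46667627, minus strand: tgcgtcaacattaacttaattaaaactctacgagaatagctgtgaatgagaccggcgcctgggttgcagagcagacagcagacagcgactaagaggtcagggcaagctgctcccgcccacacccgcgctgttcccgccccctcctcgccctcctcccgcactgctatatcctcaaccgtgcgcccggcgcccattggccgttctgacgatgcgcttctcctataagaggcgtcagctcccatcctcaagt
Lao1, chr4:118961717-118961966, plus strand: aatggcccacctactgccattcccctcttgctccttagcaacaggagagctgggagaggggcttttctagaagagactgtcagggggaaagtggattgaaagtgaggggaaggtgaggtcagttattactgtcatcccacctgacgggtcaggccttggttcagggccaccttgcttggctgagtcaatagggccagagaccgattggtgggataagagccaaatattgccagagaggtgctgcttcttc
The Cyp1a1 window held GCGTG 1 time, starting 54 bases before the start, and also held TATAAA, 30 bases before it. Window 1 of Tph1 held GCGTG 2 times, starting 41 and 29 bases before its start, while window 2 and the Lao1 window did not hold it. Of all 32851 windows of this length, 28.2% held GCGTG and 8.63% held it 2 or more times, and 12.4% held TATAAA. These matches describe the letters of the windows only. Sequence further upstream was not searched, and no match was compared with the known elements of Cyp1a1. The array data do not measure binding.

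All 3 genes read higher on every high-fat diet array than on any normal diet array, as did 8.87% of all probes kept for the comparison and 12.6% of those kept through the high-fat diet arrays only. The genes were selected on this contrast, and nothing is read from that count. Cyp1a1 stood clear of background on most arrays and was 3.81-fold higher, a size that depended on how background was treated. Under another treatment, described below, it was 1.74-fold higher. Tph1 and Lao1 were near background in the normal diet aortas, where Tph1 was not detected and Lao1 was detected on 1 of 3 arrays. In bulk aorta, fewer cells of a type and less RNA per cell cannot be told apart.

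The arrays were printed on 2 slides, of which slide 1 carried normal diet replicates 1 and 3. The remaining normal diet array, replicate 2, was on slide 2 beside the whole high-fat diet group. Signals are given as the scanner's processed signal, the brightness of the spot after subtraction of background and correction for position, in intensity units, and as its log2 after quantile normalization across the arrays. A spot is well above background, by the scanner's own flag, when it exceeds the noise of the background around it. Probes were kept if every array of at least 1 of the diets detected them, which left 64467. Each of the 3 genes was kept through the high-fat diet arrays only.

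For Cyp1a1 the processed signal was 18.6 in normal diet replicate 1, 29.6 in replicate 2 and 15.5 in replicate 3. It was 112 in high-fat diet replicate 1, 109 in replicate 2 and 63.6 in replicate 3. The diets did not overlap, and the nearest arrays were 34.0 intensity units apart. Normal diet replicate 3 was the only array on which the spot missed the flag, with a signal 4.34 times the scanner's error, against 9.67 to 9.87 times on the high-fat diet. After normalization the log2 signals on the normal diet were 4.48 (replicate 1), 4.84 (replicate 2) and 4.12 (replicate 3). Those on the high-fat diet were 6.90 (replicate 1), 6.41 (replicate 2) and 5.92 (replicate 3). The log2 signals spanned 0.72 within the normal diet and 0.98 within the high-fat diet. The group means were 4.48 ± 0.36 and 6.41 ± 0.49 (SD, n = 3 each), and their difference was 1.93 on the log2 scale (standard error 0.30).

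Tph1 was not detected on the normal diet. Its processed signal was 4.94 in normal diet replicate 1, 6.32 in replicate 2 and 2.91 in replicate 3, and the flag was not passed on any of them. The value of replicate 3 is a substitute that the scanner software inserts where it cannot tell a spot from its background. Among the high-fat diet arrays the signal was 15.1 (replicate 1), 22.2 (replicate 2) and 18.8 (replicate 3), each well above background. The normal diet therefore gives no detected level to compare with. Each normal diet array was set at the higher of its own Tph1 signal and the lowest signal of a detected probe there. With that floor the high-fat diet group was 2.10-fold higher. This is not a lower limit, since spots that missed the flag reached 15.6, 11.8 and 18.7 on normal diet replicates 1 to 3. With normexp, a background treatment described below, Tph1 was 1.92-fold higher with an offset of 1 and 1.20-fold with an offset of 50. The log2 signals were 2.45, 2.73 and 0.98 for normal diet replicates 1 to 3, and 3.99, 4.09 and 4.14 for high-fat diet replicates 1 to 3. The high-fat diet arrays lay within 0.16 of each other, while the normal diet arrays spanned 1.75. The measured means were 2.05 ± 0.94 and 4.07 ± 0.08 (SD, n = 3 each), with a difference of 2.02 (standard error 0.43). Without the substituted value of normal diet replicate 3 the difference was 1.48 (standard error 0.20).

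For Lao1 the processed signal was 10.8 in normal diet replicate 1, 21.5 in replicate 2 and 8.50 in replicate 3, and only replicate 2 passed the flag. It was 26.4 in high-fat diet replicate 1, 40.3 in replicate 2 and 29.9 in replicate 3, all well above background. The nearest pair, normal diet replicate 2 and high-fat diet replicate 1, was 4.87 intensity units apart, against scanner errors of 2.79 and 3.09 on those spots. The log2 signals were 3.70, 4.39 and 3.18 for normal diet replicates 1 to 3, and 4.79, 4.96 and 4.82 for high-fat diet replicates 1 to 3. The diets did not overlap, but normal diet replicate 2 stood closer to the high-fat diet arrays than to either normal diet array of slide 1. The means were 3.76 ± 0.61 and 4.86 ± 0.09 (SD, n = 3 each), a difference of 1.10 (standard error 0.30), or 2.14-fold, with 2 of the 3 normal diet spots not well above background. Without normal diet replicate 3 it was 0.81, or 1.75-fold. Against normal diet replicate 2 alone, on the slide that holds both diets, it was 0.47, or 1.38-fold. The 2.14-fold difference lies just above the 2-fold limit of the list, and the rule gives no gene just outside it.

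**Figure D1:**
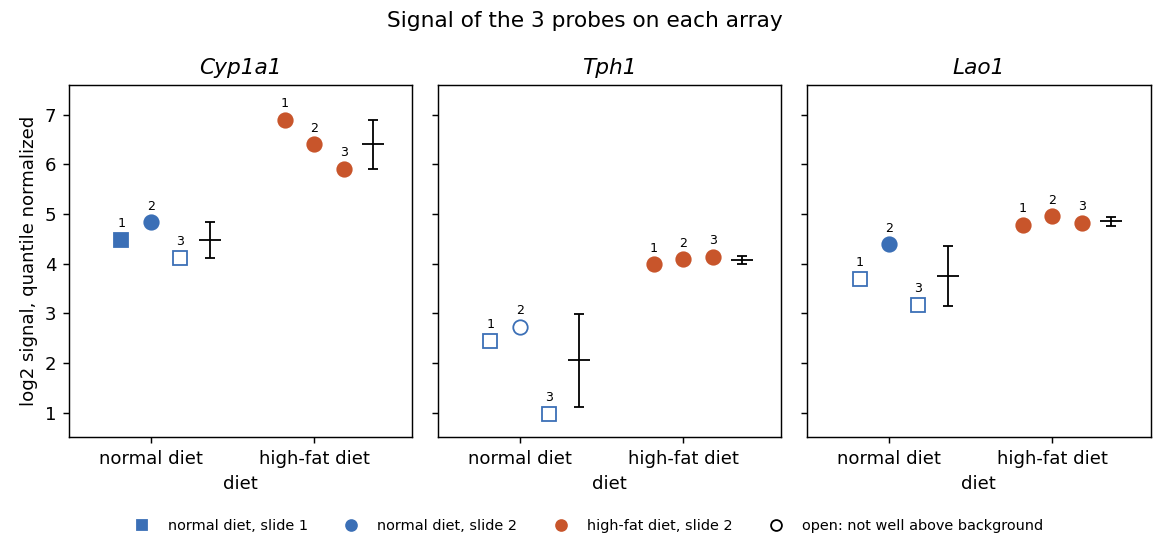
Log2 signal after quantile normalization (vertical axis) of the Cyp1a1, Tph1 and Lao1 probes on each array, by diet. Numbers are replicates, squares slide 1, circles slide 2, open symbols spots that were not well above background, and bars the mean ± SD of 3 arrays. All 3 high-fat diet arrays lie above the normal diet arrays in each gene, and all 6 open symbols are normal diet arrays.

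Among all kept probes, 2.96% met both criteria of the study in limma (2-fold or more apart, with p at or under 0.05 before adjustment), and 2.14% did so with the high-fat diet higher. In 8.87% every high-fat diet array lay above every normal diet array. These shares were larger among probes kept in the way the 3 genes were. Of the 10295 probes kept through the high-fat diet arrays only, 8.63% met both criteria upwards and 12.6% had no overlap in that direction, whereas of the 53895 probes detected on all 6 arrays 0.907% met both criteria upwards.

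The spots were also dim among the kept probes, which says how near they lie to background and does not compare the RNA of different genes. The mean log2 signal over the 6 arrays exceeded that of 1.99% of the kept probes for Tph1, 18.2% for Lao1 and 37.4% for Cyp1a1. In the lowest quartile of this mean, which holds Tph1 and Lao1, 4.91% of the probes met both criteria upwards. In the next quartile, with Cyp1a1, 1.30% did, and in the brighter quartiles 1.20% and 1.12%.

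**Figure D2:**
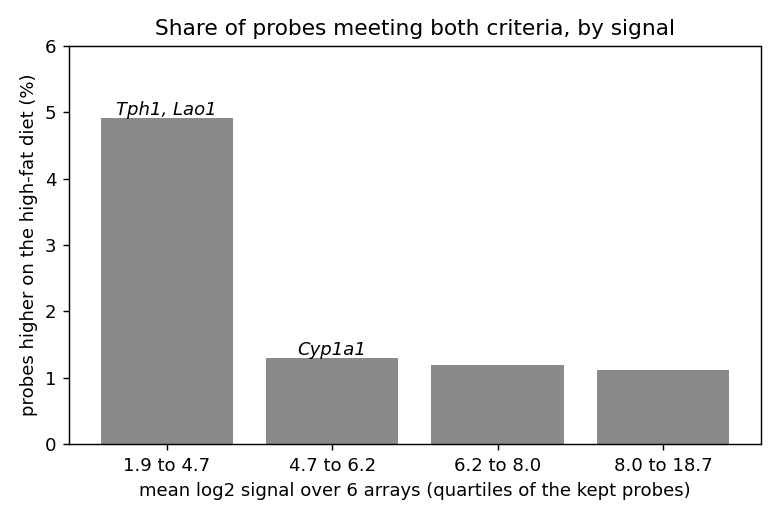
Percent of kept probes that met both criteria upwards (vertical axis), in quartiles of the mean log2 signal over the 6 arrays (horizontal axis, with the bounds of each quartile). The dimmest quartile, with Tph1 and Lao1, stands at 4.91%, and the quartile with Cyp1a1 at 1.30%.

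What was subtracted from the spots differed between the slides. Before subtraction the Tph1 spot measured 48.6 in normal diet replicate 1 and 44.5 in replicate 3, while the high-fat diet spots measured 39.0, 47.5 and 43.7 (replicates 1 to 3). The diets thus overlapped before subtraction, and the brightest of these spots was that of normal diet replicate 1. The scanner software subtracted 43.2 and 42.9 from the slide 1 spots, and between 22.1 and 23.1 from the Tph1 spots of slide 2. Lao1 showed the same overlap, at 53.9 and 51.9 before subtraction for the normal diet on slide 1, against 50.8, 66.0 and 54.6 for high-fat diet replicates 1 to 3. Cyp1a1 did not overlap even before subtraction. Its spots measured 57.8, 53.1 and 56.4 for normal diet replicates 1 to 3, against 127, 130 and 85.1 for high-fat diet replicates 1 to 3. The software subtracted 39.0 and 41.5 from its slide 1 spots, and between 22.3 and 23.9 from those of slide 2. The local background beside the spots of the 3 genes was between 20 and 24 on all arrays, while negative control spots had a net signal of 31.6 and 32.2 on the slide 1 arrays and of 13.1 to 13.8 on those of slide 2. The part of this slide difference in the diet differences of Cyp1a1, Tph1 and Lao1 was not tested.

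**Figure D3:**
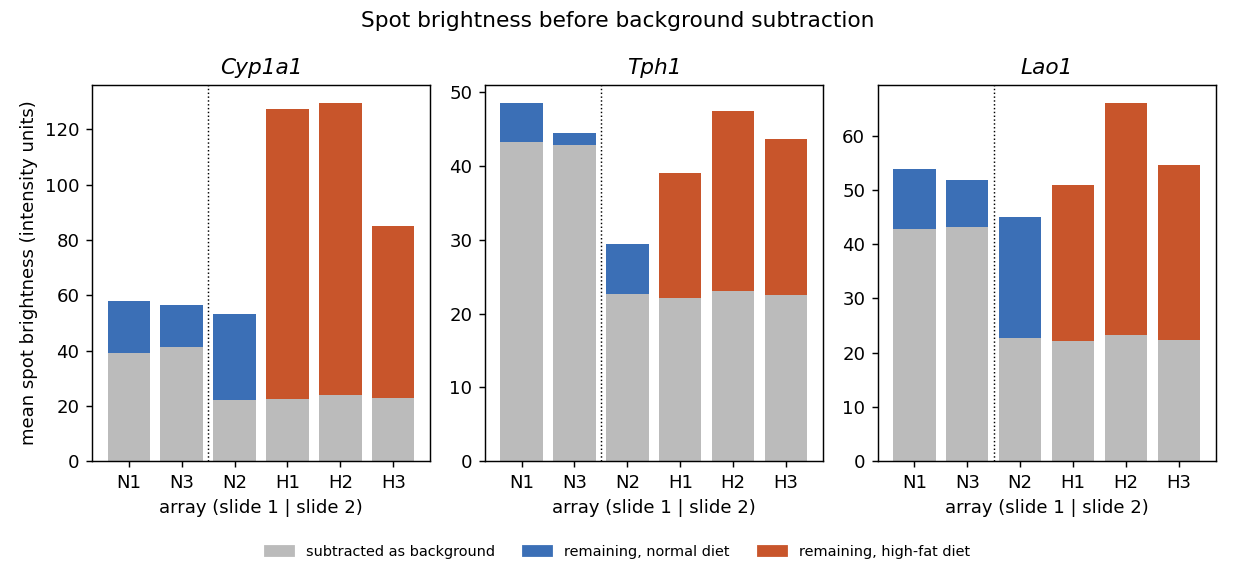
Mean spot brightness in intensity units (vertical axis, from 0) of the 3 probes on each array, split into the amount subtracted as background (grey) and what remained (blue for the normal diet, orange for the high-fat diet). N and H are normal and high-fat diet replicates, and the dotted line separates slide 1 from slide 2. The whole bars of Tph1 and Lao1 on slide 1 reach the height of high-fat diet bars, while those of Cyp1a1 stay below them.

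Within slide 2 all 3 genes kept their direction, with normal diet replicate 2 as the only array of its diet. There the spots before subtraction were 29.4 for Tph1, 45.0 for Lao1 and 53.1 for Cyp1a1 on normal diet replicate 2, each below every high-fat diet array. The high-fat diet mean was 1.57 log2 units above normal diet replicate 2 for Cyp1a1 (2.97-fold), 1.35 for Tph1, which that array did not detect, and 0.47 for Lao1 (1.38-fold). Against the slide 1 arrays of the normal diet the same means were 2.11 higher for Cyp1a1 and, against spots that missed the flag, 2.36 for Tph1 and 1.42 for Lao1. Normal diet replicate 2 itself read 0.54 above the mean of the slide 1 arrays for Cyp1a1. For Lao1 the measured value was 0.95 and for Tph1 1.01, but both slide 1 spots of Lao1 and all 3 normal diet spots of Tph1 missed the flag, so these are differences between or against undetected spots. For comparison, 2.08% of all kept probes had a high-fat diet mean at least 2-fold above normal diet replicate 2, and 1.64% met both criteria upwards with the slide as a block. In 30.3% all 3 high-fat diet arrays were above that array, and in 37.8% it was above both arrays of slide 1. Lao1 was thus less than 2-fold apart on the slide that holds both diets, and with a single normal diet array the spread within that diet cannot be had there.

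Among themselves the 3 genes differed in how they varied over the high-fat diet arrays, on which all were detected. On the high-fat diet Cyp1a1 was highest on replicate 1 and lowest on replicate 3, by 0.98 log2 units, while Tph1 and Lao1 had replicate 1 lowest and spanned 0.16 and 0.17. These narrow spans are those after normalization. Before it, the processed signals ran from 15.1 to 22.2 for Tph1 and from 26.4 to 40.3 for Lao1, each from a single spot. Over the 6 arrays, which share slides and diets, Pearson's r was 0.968 between Tph1 and Lao1, 0.905 between Cyp1a1 and Tph1 and 0.893 between Cyp1a1 and Lao1. After the mean of each slide was removed it was 0.978, 0.730 and 0.719. These are descriptions that include the undetected normal diet spots, and all 3 probes were chosen for the same difference between the diets.

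The named probes of the mRNA list whose pattern over the 6 arrays was most like each gene were taken by Pearson's r among 284 probes, all chosen for the same contrast. For Cyp1a1 they were Rad21l, AU023617, Fgl1, Cnksr2 and Ushbp1, with r from 0.952 to 0.963. After the slide means were removed r was 0.910, 0.933, 0.950, 0.871 and 0.992 in that order. For Tph1 they were Pigx, Rundc3b, Pdcl2, Cnksr2 and Aplnr, the apelin receptor, with r from 0.980 to 0.996. For Lao1 they were 1700084K02Rik, Socs6, 9330133O14Rik, a probe whose symbol reads Fanc1 in the text of the list, possibly for Fancl, and Elmsan1, with r from 0.992 to 0.998. Lao1 ranked 9th for Tph1, and Tph1 20th for Lao1.

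The other genes of the pathway were not analysed here, because the mRNA list was the only source used that pairs probes with gene names. Of 49 other genes of tryptophan and serotonin metabolism, among them the kynurenine enzymes Ido1, Tdo2 and Kmo and the brain isoform Tph2, the list named 0. Apart from Cyp1a1 itself, it also named 0 of 16 other genes of the aryl hydrocarbon receptor, its partners and its targets. Of the cell type markers it named 4 of 55. None of the 6 smooth muscle and 6 endothelial markers was among them, so the tissue label could not be checked against its own cells. Cma1, the mast cell chymase and the 1 mast cell marker of 9 with a name, had log2 signals of 4.89, 4.03 and 5.22 for normal diet replicates 1 to 3, against 6.03, 6.34 and 5.53 for high-fat diet replicates 1 to 3. The difference was 1.25. It was detected on all 6 arrays. Cd68, the 1 macrophage marker of 7 with a name, ranged from 4.38 to 5.94 on the normal diet and from 6.87 to 7.87 on the high-fat diet. The differences, high-fat minus normal diet, were 2.11 for Cd68 and 2.01 for S100b of the neuron and Schwann cell list. With the slide as a block, that is against normal diet replicate 2, they were 2.87 for Cd68, 1.93 for Cma1 and 1.89 for S100b. Tg, thyroglobulin, of the thyroid list, was detected on all 3 normal diet arrays (3.71 to 4.74) and on 1 of 3 high-fat diet arrays, at 3.33. These 4 were listed for the same contrast, and their part in the differences of Cyp1a1, Tph1 and Lao1 was not tested.

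The size of the differences depended on how background was treated. With normexp, which models the background and adds an offset before the log, an offset of 50 gave log2 differences of 0.80 for Cyp1a1, 0.27 for Tph1 and 0.26 for Lao1. That offset is larger than any processed signal of Tph1 or Lao1. With an offset of 1, tried after the data were seen, the differences were 1.52, 0.94 and 0.69. Scaling each array by its 75th percentile left them at 1.96, 1.83 and 1.13, and the authors' deposited log2 values gave 1.93, 2.00 and 1.09. Cyp1a1 was the only one of the 3 above 2-fold with the offset of 1, and none was above it with the offset of 50. All differences stayed above 0.

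**Figure D4:**
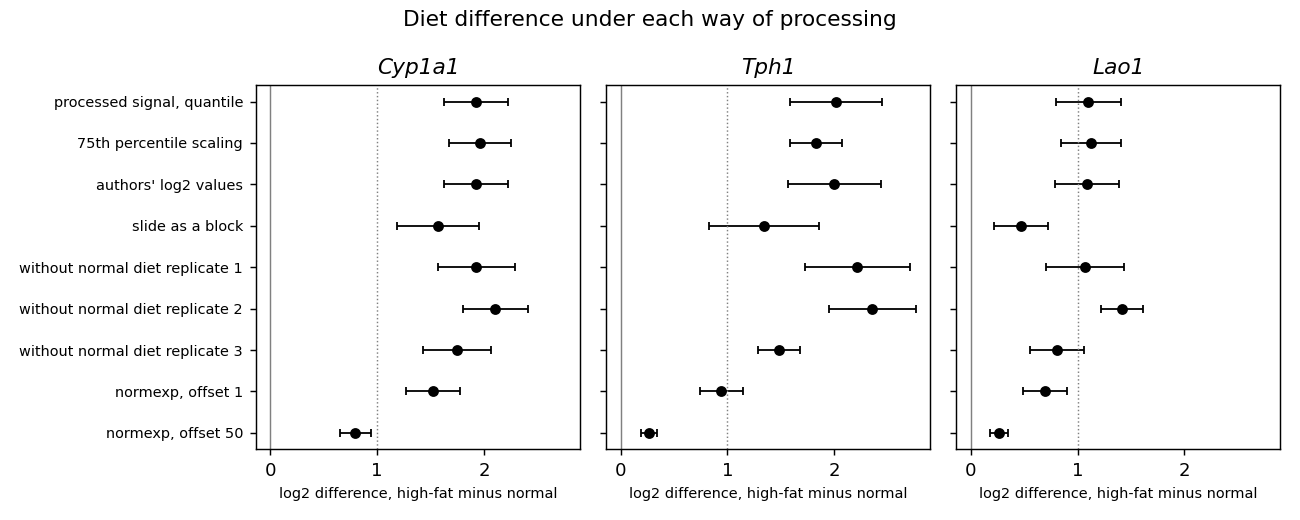
Log2 difference, high-fat minus normal diet (horizontal axis), of the 3 probes under 9 ways of processing (rows). Points are fitted differences, bars their standard errors, the solid line 0 and the dotted line 2-fold. Cyp1a1 falls to the left of the dotted line with the normexp offset of 50 only, while Lao1 does so in 4 of the rows.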

How the data were processed

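The authors deposited Agilent Feature Extraction output (version 10.7.1.1) with spot intensity values, flags and the scanner's p-values for each spot, and a table of log2 values, which the methods describe as quantile normalized in GeneSpring. Slides were read from the headers. The probes were paired with genes through the study's mRNA list, using only its probe and symbol columns, and its fold changes and p-values were not used. From the processed intensity, outlier spots were left out, the spots of a probe averaged, a floor of 1 set and log2 values quantile normalized. Detection required that 0.5 or more of a probe's spots on an array carried both scanner flags for signal (positive and significant, well above background) and no outlier flag. Differences were fitted with limma 3.58.1 in R 4.3.3 over all 64467 kept probes, 28 of which lacked a value on some array. Python 3.11.15 was used for sequences and figures. The fit was tested on simulated data. Alternatives were other scalings, normexp background correction, the authors' log2 values, slide and replicate blocks, other filters and leaving out each array. The genes, lists and tests were chosen with earlier results of these data known. Named genes are the 3 members, those of the fixed lists that the mRNA list names, and the 5 probes with the highest r to each member. Each array is 1 mouse, and the number of arrays limits the precision.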

Additional observations from a re-analysis of the deposited data

How the results depend on the processing

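All differences of Cyp1a1, Tph1 and Lao1 kept their direction under each alternative that gave them a value. The filter for detection on all 6 arrays removed all 3, and the methods' t-test was run for the count only. With the slide as a block, the difference is that against normal diet replicate 2, and was 1.35 for Tph1 and 0.47 for Lao1. Normexp with an offset of 50 gave 0.80, 0.27 and 0.26 for Cyp1a1, Tph1 and Lao1. An offset of 1, added after the data were seen, gave 0.94 for Tph1. With each array left out in turn, Cyp1a1 ranged from 1.68 to 2.17, Tph1 from 1.48 to 2.36 and Lao1 from 0.81 to 1.42, the lowest of Tph1 and Lao1 being without normal diet replicate 3, when Lao1 fell below 2-fold. Of all kept probes, 1911 met both criteria in either direction, 322 with a normexp offset of 50, 962 with an offset of 1, 984 of those detected on all 6 arrays, 687 with the methods' t-test and 1 with a Benjamini-Hochberg adjusted p in limma. With each array left out, the count ranged from 1140 to 5875, at 1140 without normal diet replicate 1 and at 5875 without replicate 2 of the normal diet, which leaves the slides with a single diet each. By adjusted p alone, at any fold, limma called 1 probe with all arrays, 8720 without normal diet replicate 2 and 0 with any other array left out. The replicate numbers did not pair the arrays: same-numbered arrays had correlations of -0.26, -0.21 and -0.04 between their deviations from the diet means, and 0 of the 3 high-fat diet arrays correlated best with their own number. The replicate block left the differences at 1.93, 2.02 and 1.10 and gave a count of 2164. The counts for the tryptophan and aryl hydrocarbon receptor lists were not run, since no probe of either was named.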
